A study of Bos taurus with 12 samples.

Results

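The 10 genes described here encode enzymes that make, lengthen and desaturate fatty acids: ACLY, ACSS2, ACACA, FASN, SCD, SCD5, ELOVL5, ELOVL6, FADS1 and FADS2. They were taken by name, and are 10 of the 29240 genes in a table of read counts from cultured cattle (Bos taurus) precursor adipocytes. All 10 were found in the table and passed the filter on low counts. De novo synthesis starts from cytosolic acetyl-CoA, which ATP citrate lyase (ACLY) makes from citrate and acetyl-CoA synthetase 2 (ACSS2) makes from acetate, a main carbon source for fat in ruminant tissue. Acetyl-CoA carboxylase alpha (ACACA) turns acetyl-CoA into malonyl-CoA, and fatty acid synthase (FASN) builds palmitate from it. Stearoyl-CoA desaturases (SCD, SCD5) place a double bond in saturated chains, ELOVL6 lengthens saturated and monounsaturated chains, and ELOVL5, FADS1 and FADS2 act on polyunsaturated ones. Several of these genes are textbook targets of the SREBP transcription factors, which also drive cholesterol synthesis.

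The study held 4 groups of 3 libraries of polyadenylated RNA, collected 48 h after transfection. OE cells received pcDNA3.1-HGFAC, a plasmid with the coding sequence of HGFAC, the secreted protease known as hepatocyte growth factor activator, and OE_NC cells received pcDNA3.1-NC. The si group is labelled only as transfected with si and si_NC as transfected with NC. The labels name no target for si, and their protocol text speaks of a plasmid for both groups. No label gives the breed, age or number of the animals or says that replicates came from separate cultures, so p-values measure only the spread between these libraries, which may be technical.

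Counts assigned to genes summed to 35.9 to 42.7 M per library in si, 28.9 to 32.2 M in si_NC, 32.7 to 36.4 M in OE and 35.1 to 38.2 M in OE_NC. Levels are given as CPM, counts per M after TMM scaling (a correction for library composition), unless RPKM (per kilobase of exon and M counts) is named. HGFAC stood at 161 ± 26.3 CPM in OE and 0.393 ± 0.127 in OE_NC (SD, n = 3). It stood at 0.658 ± 0.165 CPM in si and 0.830 ± 0.0988 in si_NC (SD, n = 3), where 21 to 31 reads per library leave little precision. Stromal markers were abundant in every library, with COL1A2 at a mean of 7200 CPM, while the 10 mature adipocyte markers summed to 38.1 to 54.1 CPM and 4 of them had means under 1 CPM. Of the other markers, the muscle gene DES (569 CPM) and the endothelial gene FLT1 (64.2 CPM) were the most abundant of their lists. In both of those lists 5 of the 7 markers had means under 1 CPM. Immune markers summed to 8.09 to 11.004 CPM. The libraries si replicate 3 and si_NC replicate 2 had the lowest mean correlation with the others of their groups (Pearson r 0.986 and 0.985, log2 CPM across genes). The gaps were small, with 0.989 for both other si libraries and 0.986 and 0.987 for the other si_NC libraries. Results that rest on si replicate 3 and si_NC replicate 2 are also given without them.

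The 10 enzymes spread over a wide range of expression. Per length of exon, ELOVL5 led with a mean of 22.5 RPKM over the 12 libraries, followed by ACLY at 11.9, ELOVL6 and FASN close together at 10.15 each, SCD at 8.34, FADS1 at 7.42, FADS2 at 6.02 and ACACA at 3.85 RPKM. ACSS2 (0.908 RPKM) and SCD5 (0.667 RPKM) were the lowest. ELOVL5 stood above ACLY, the next in order, without overlap in all 4 groups. From ACLY down to FADS2, neighbours in the order overlapped throughout in si and si_NC. ACSS2 stood above SCD5 without overlap in si and si_NC, and below it without overlap in OE and OE_NC.

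In the coordinates of the count table, with the chromosome taken by symbol from a RefSeq gene table of the assembly ARS-UCD2.0, FASN spans 50776167 to 50794939 on the plus strand of chromosome 19, which also carries ACLY (42049434 to 42093838, minus strand) and ACACA (13439533 to 13726365, minus strand). SCD spans 21263976 to 21279185 on chromosome 26 and ACSS2 spans 64186750 to 64233570 on chromosome 13, both on the plus strand. Chromosome 6 carries SCD5 (97461663 to 97637658, minus strand) and ELOVL6 (15228080 to 15362449, plus strand), and ELOVL5 spans 25400732 to 25474020 on the minus strand of chromosome 23. FADS1 (40244825 to 40351549, minus strand) and FADS2 (40257864 to 40387559, plus strand) overlap on chromosome 29. Their annotated exons share 133 bases on opposite strands, and the strand setting of the counting is not given in the sources used here, so a share of their reads could not be told apart. The files name no genome build, and 3 of the 10 genes (SCD, SCD5 and ELOVL5) have the same span in the RefSeq table.

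**Figure D1:**
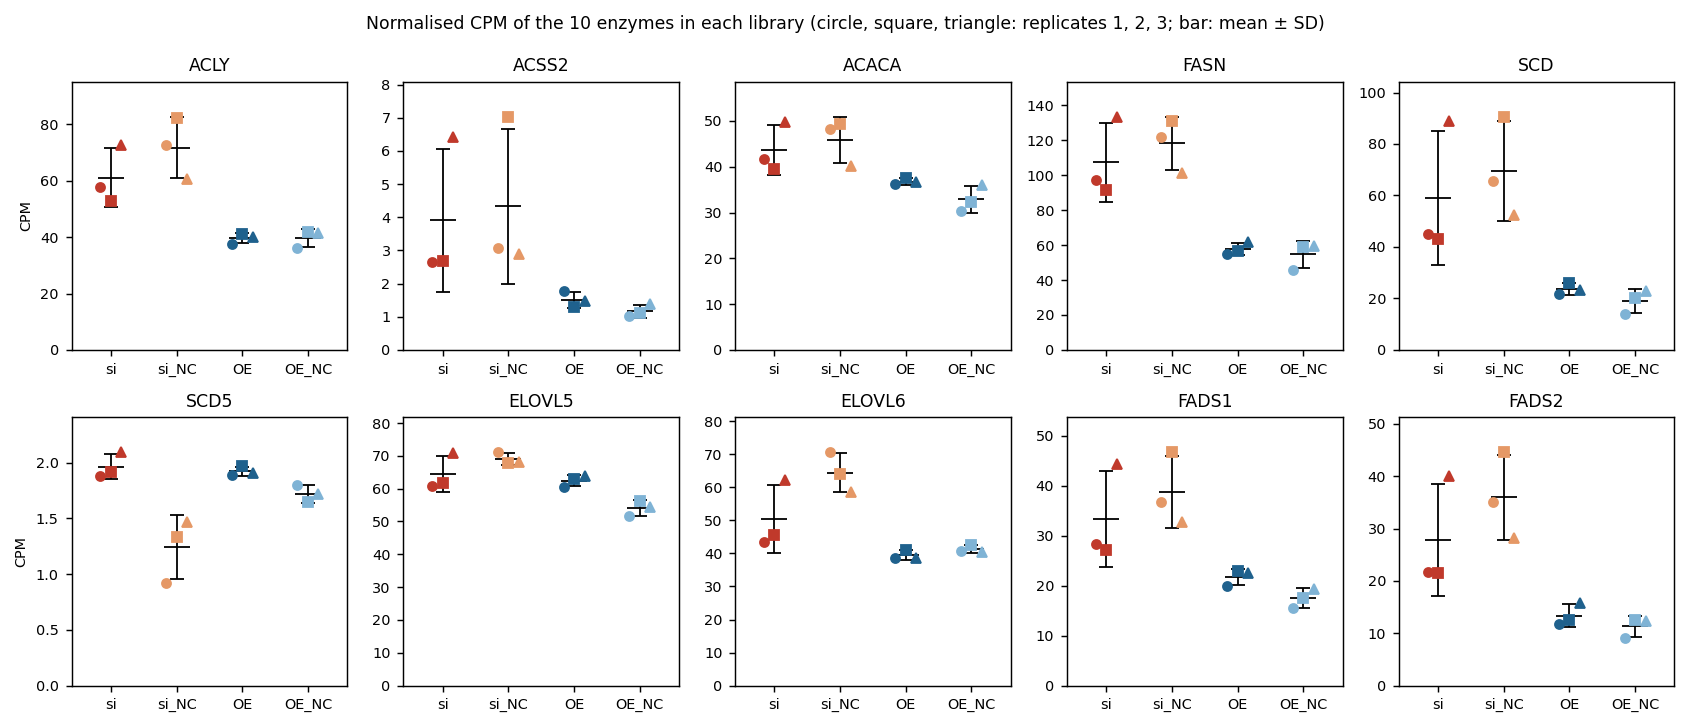
TMM-scaled CPM of each enzyme (y axis, from 0) in the 3 libraries of each group (x axis), with the mean and SD as black bars. For 8 of the 10 enzymes all 6 OE and OE_NC libraries lie below all 6 si and si_NC libraries, while SCD5 is low throughout and lowest in si_NC.

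None of the 10 enzymes passed the test between si and si_NC or between OE and OE_NC. The control groups OE_NC and si_NC, in contrast, differed in 9 of the 10, all lower in OE_NC by 1.28-fold (ELOVL5) to 3.70-fold (ACSS2), with SCD5 the exception. The comparison of controls takes in everything that differed between the pcDNA3.1 cells and the si cells: the material transfected and any difference in culture, handling or date cannot be told apart. In bulk RNA, fewer cells of a type and less RNA per cell cannot be told apart either.

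Of the acetyl-CoA suppliers, ACLY was measured at 72.5, 82.3 and 60.5 CPM in si_NC replicates 1, 2 and 3 and at 36.2, 41.9 and 41.4 CPM in OE_NC. ACLY was lower in OE_NC by 1.80-fold, a log2 fold change of -0.85 ± 0.12 (SE; edgeR quasi-likelihood test, Benjamini-Hochberg adjusted p = 0.000585). ACSS2 was measured at 3.07, 7.03 and 2.90 CPM in si_NC and 1.01, 1.11 and 1.38 CPM in OE_NC. Its change was the largest of the 10 at -1.89 ± 0.39 log2 (SE; edgeR adjusted p = 0.00458), and also the least precise, with a 95% interval of -2.72 to -1.05. The si_NC replicate 2 library held more than the sum of the other si_NC libraries, and without it the log2 fold change was -1.36.

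ACACA and FASN, which carry out the committed step and the chain building, differed to unequal extents. FASN was measured at 122, 131 and 101 CPM in si_NC and 46.0, 59.1 and 59.6 CPM in OE_NC. This was 2.15-fold lower, with a log2 fold change of -1.11 ± 0.14 (SE; edgeR adjusted p = 0.000222), the smallest adjusted p of the 10. ACACA was measured at 48.2, 49.4 and 40.1 CPM in si_NC and 30.3, 32.2 and 36.1 CPM in OE_NC. Its log2 fold change was -0.48 ± 0.10 (SE; edgeR adjusted p = 0.00530). For both genes every OE_NC library lay below every si_NC library.

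The paralogous stearoyl-CoA desaturases went apart. SCD was measured at 65.7, 90.6 and 52.4 CPM in si_NC and 13.8, 20.2 and 23.1 CPM in OE_NC. That is 3.65-fold lower, with a log2 fold change of -1.87 ± 0.27 (SE; edgeR adjusted p = 0.000492) and a 95% interval of -2.44 to -1.30. SCD5 was measured at 0.916, 1.34 and 1.47 CPM in si_NC and 1.80, 1.64 and 1.72 CPM in OE_NC. SCD5 in all 3 OE_NC libraries was above si_NC, but the log2 fold change of 0.47 ± 0.20 (SE) did not pass (edgeR adjusted p = 0.110). The SCD5 values rested on 28 to 84 reads per library.

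Of the elongases, ELOVL6 was measured at 70.6, 64.1 and 58.7 CPM in si_NC and 40.9, 42.7 and 40.5 CPM in OE_NC. Its log2 fold change was -0.64 ± 0.12 (SE; edgeR adjusted p = 0.00205). ELOVL5 was measured at 71.0, 67.9 and 68.1 CPM in si_NC and 51.6, 56.4 and 54.4 CPM in OE_NC. Its change was the smallest of the 9 at -0.35 ± 0.07 log2 (SE; edgeR adjusted p = 0.00504), with replicates that lay close together and did not overlap.

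Both polyunsaturated desaturases were lower in OE_NC. FADS2, the delta-6 desaturase, was measured at 35.1, 44.6 and 28.2 CPM in si_NC and 9.06, 12.5 and 12.4 CPM in OE_NC. This was 3.17-fold lower, with a log2 fold change of -1.67 ± 0.23 (SE; edgeR adjusted p = 0.000435). FADS1, the delta-5 desaturase, was measured at 36.7, 46.6 and 32.7 CPM in si_NC and 15.5, 17.6 and 19.4 CPM in OE_NC. For FADS1 the log2 fold change was -1.15 ± 0.17 (SE; edgeR adjusted p = 0.000720).

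Of all 16300 genes tested, 10.2 percent were called lower in OE_NC than in si_NC, 9.49 percent higher and 19.7 percent in either direction. Of the 10 enzymes 9 were called lower and 0 higher, by edgeR, in the DESeq2 Wald test (22.6 percent of genes called) and in each refit that left out 1 library. The groups did not overlap for any of the 10, 9 lower and SCD5 higher, where 17.4 percent of all genes were lower and 18.4 percent higher without overlap. Genes called lower and at least 2-fold apart were 0.509 percent of those tested, and 5 of the 10 enzymes (ACSS2, FASN, SCD, FADS1 and FADS2) were among them. The median log2 fold change was -0.98 over the 10 enzymes and 0.02 over all genes tested. Some library measures moved with the groups: si_NC libraries had fewer counts than OE_NC libraries, their TMM factors were 0.949 to 0.983 against 1.019 to 1.036, and their mitochondrial share was 1.82 to 1.94 percent against 1.96 to 2.07. The 4 hepatocyte markers summed to 5.00 to 7.21 CPM in si_NC and 15.1 to 18.7 CPM in OE_NC, led by APOA1 with 2 of the 4 under 1 CPM on average, and the part of these measures in the result was not tested.

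The separation was not limited to the controls. All 6 OE and OE_NC libraries lay below all 6 si and si_NC libraries for ACLY, ACSS2, ACACA, FASN, SCD, ELOVL6, FADS1 and FADS2, by CPM and by the deposited RPKM. Of all genes tested, 4.93 percent were lower without overlap in this way by CPM, 4.02 percent were lower by RPKM, and 3.35 percent were higher by CPM. The summed CPM of the 10 enzymes was 388 to 571 in si, 447 to 585 in si_NC, 285 to 306 in OE and 246 to 290 in OE_NC. ELOVL5 showed the least spread of the 10 between its highest and lowest library (1.38-fold), against 4.92-fold for FADS2, 6.58-fold for SCD and 6.97-fold for ACSS2.

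**Figure D2:**
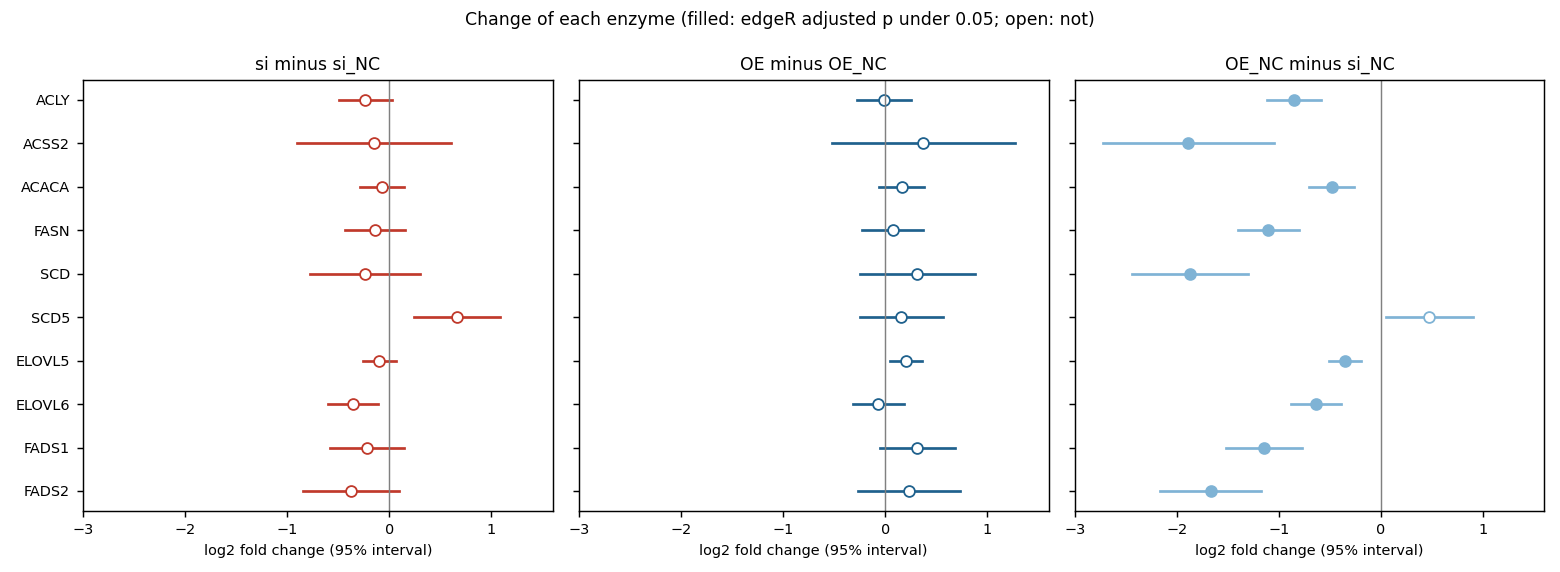
Log2 fold change (x axis) of each enzyme (rows) with its 95% interval in si against si_NC, OE against OE_NC and OE_NC against si_NC, from edgeR over 16300 genes, with filled points for adjusted p under 0.05. All points are open in the first 2 panels, while 9 of 10 are filled and to the left of 0 in the third.

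In si against si_NC, 9 of the 10 enzymes had a log2 fold change below 0 and none passed the test (edgeR adjusted p 0.0875 to 0.862). Of all genes tested 2.54 percent were called, 0.92 percent higher and 1.62 percent lower. The median log2 fold change was -0.18 over the 10 enzymes and 0.02 over all genes, of which 46.0 percent were below 0. Unadjusted p was under 0.05 for 2 enzymes, SCD5 and ELOVL6, and the DESeq2 Wald test called 1 of the 9 to which it gave an adjusted p (not SCD5), ELOVL6, where 10.5 percent of genes were called. The median of the 10 rested on single libraries: it was -0.43 without si replicate 3, -0.34 without si_NC replicate 3, -0.08 without si replicate 1 and -0.07 without si replicate 2 or si_NC replicate 2. The mitochondrial share of counts was 2.28 to 2.52 percent in si and 1.82 to 1.94 in si_NC, and its part in these values was not tested.

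SCD5 was measured at 1.88, 1.92 and 2.09 CPM in si replicates 1, 2 and 3, above the 0.916 to 1.47 CPM of si_NC without overlap. The log2 fold change of SCD5 was 0.66 ± 0.20 (SE; edgeR adjusted p = 0.0875). SCD5 was the only one of the 10 that was higher in si without overlap, and none was lower without overlap. Of all genes tested, 10.2 percent were higher and 10.6 percent lower without overlap.

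ELOVL6 was measured at 43.5, 45.5 and 62.3 CPM in si, against 58.7 to 70.6 CPM in si_NC. Replicates 1 and 2 lay below every si_NC library and replicate 3 lay within their range. Its log2 fold change was -0.35 ± 0.11 (SE; edgeR adjusted p = 0.110). FADS2 was measured at 21.6, 21.6 and 40.1 CPM in si, against 28.2 to 44.6 CPM in si_NC, with a log2 fold change of -0.37 ± 0.22 (SE; edgeR adjusted p = 0.391). Without si replicate 3 both passed, ELOVL6 at -0.54 log2 (edgeR adjusted p = 0.00535) and FADS2 at -0.74 (edgeR adjusted p = 0.0324), in a fit where 2.17 percent of genes were called lower. Without si replicate 3 and si_NC replicate 2 together, a setting chosen after seeing the data, they stood at -0.55 (edgeR adjusted p = 0.00391) and -0.56 (edgeR adjusted p = 0.0411), where 4.21 percent of genes were called lower.

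SCD was measured at 45.1, 42.96 and 88.8 CPM in si, a range that spans most of that in si_NC. Its log2 fold change was -0.24 with a 95% interval of -0.78 to 0.30, which takes in a decrease, no change and an increase. FASN was measured at 97.1, 91.6 and 133 CPM in si, with a 95% interval of -0.43 to 0.15 log2. ACLY was measured at 57.7, 52.7 and 72.7 CPM in si, with a 95% interval of -0.49 to 0.03. In all 3 genes si replicate 3 was the highest of its group and the other si libraries lay below every si_NC library. ACACA (95% interval -0.29 to 0.15), ELOVL5 (-0.25 to 0.06), FADS1 (-0.58 to 0.14) and ACSS2 (-0.90 to 0.60) did not pass either, and ACSS2 had the widest interval.

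In OE against OE_NC, 8 of the 10 enzymes had a log2 fold change above 0 and none passed the test (edgeR adjusted p 0.114 to 0.981). Of all genes tested 4.47 percent were called, 2.22 percent higher and 2.25 percent lower. The median log2 fold change was 0.18 over the 10 enzymes (0.11 without OE_NC replicate 1) and -0.0046 over all genes. Unadjusted p was under 0.05 for 1 enzyme, ELOVL5, and the DESeq2 Wald test called 0 of the 10, among 11.2 percent of genes. This comparison shares the OE_NC libraries, and the previous one the si_NC libraries, with the comparison of controls, so their changes are not independent of it.

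ELOVL5 was measured at 60.5, 63.0 and 63.8 CPM in OE, each above the 51.6 to 56.4 CPM of OE_NC. This was a log2 fold change of 0.21 ± 0.07 (SE; edgeR adjusted p = 0.114). FADS1 was measured at 19.8, 22.9 and 22.5 CPM in OE, each above the 15.5 to 19.4 CPM of OE_NC. This was a log2 fold change of 0.31 ± 0.17 (SE; edgeR adjusted p = 0.293). ACACA (36.1, 37.6 and 36.6 CPM) and SCD5 (1.88, 1.97 and 1.91 CPM) in OE also lay above all of OE_NC, with 95% intervals of -0.06 to 0.38 and -0.24 to 0.56 log2. These 4 enzymes were higher without overlap, as were 17.4 percent of all genes tested, and 0 of the 10 were lower without overlap, as were 16 percent of all genes. Without si replicate 3 and si_NC replicate 2, a setting chosen after seeing the data, ELOVL5 (0.19 log2, edgeR adjusted p = 0.0488) and FADS1 (0.30, edgeR adjusted p = 0.0391) passed, where 6.53 percent of genes were called higher. Neither library belongs to OE or OE_NC, and the log2 fold changes of ELOVL5 and FADS1 did not grow. The fit shares its estimate of spread over all groups, and calls over all genes rose from 728 to 2325 in that setting.

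SCD was measured at 21.6, 26.0 and 23.4 CPM in OE, overlapping the 13.8 to 23.1 CPM of OE_NC, with a 95% interval of -0.25 to 0.88 log2. FADS2 was measured at 11.7, 12.5 and 15.8 CPM in OE, with a 95% interval of -0.26 to 0.74. FASN was measured at 55.0, 56.6 and 61.8 CPM in OE, within 0.37 log2 above and 0.22 below OE_NC by its interval of -0.22 to 0.37. ACLY was at 37.6, 41.2 and 40.01 CPM in OE and its group mean of 39.6 CPM was close to the 39.8 CPM of OE_NC. The mean of HGFAC was 160.6 CPM higher in OE than in OE_NC, and none of the 10 enzymes differed past the threshold between those groups. The 7 skeletal muscle markers summed to 713 to 743 CPM in OE and 517 to 589 in OE_NC, led by DES, with 5 of the 7 under 1 CPM on average. Of the 2 muscle markers tested, DES was called higher in OE and ACTA1 lower. The 4 hepatocyte markers summed to 30.0 to 31.5 CPM in OE and 15.1 to 18.7 in OE_NC, led by APOA1, with 2 of the 4 under 1 CPM on average. The mitochondrial share was 1.51 to 1.58 percent in OE and 1.96 to 2.07 in OE_NC, and the part of these measures in these values was not tested.

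The change in OE and the change in si were then compared directly as an interaction, which asks whether they differ. For 9 of the 10 enzymes the change in OE was the higher, while 52.6 percent of all genes had a difference below 0. Of the 10, 0 passed the test, where 8.41 percent of all genes were called, 4.29 percent with the higher change in OE and 4.12 percent with the lower. The difference holds OE_NC and si_NC with signs opposite to those in the comparison of controls, so it is not independent of that comparison. The unadjusted p was under 0.05 for ELOVL5 and FADS1, and the DESeq2 Wald test called 1, ELOVL5, among 13.3 percent of genes. The difference of the changes was 0.30 ± 0.10 log2 for ELOVL5 (SE; edgeR adjusted p = 0.0892), 0.53 ± 0.24 for FADS1 (SE; edgeR adjusted p = 0.187) and 0.61 ± 0.32 for FADS2 (SE; edgeR adjusted p = 0.268). Without si replicate 3, 5 enzymes passed (SCD, ELOVL5, ELOVL6, FADS1 and FADS2), with differences of 0.36 (ELOVL5) to 0.96 log2 (SCD and FADS2), in a fit where 6 percent of genes were called higher. Also without si_NC replicate 2, the same 5 passed at 0.38 to 0.78 log2, where 7.07 percent of genes were called higher.

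Since a ratio of 2 genes within a library does not depend on library scaling, the balance between enzymes was read from RPKM ratios. SCD relative to FASN was 0.947 ± 0.154 in si_NC and 0.558 ± 0.0712 in OE_NC (SD, n = 3), with ranges of 0.841 to 1.12 and 0.487 to 0.630. SCD relative to SCD5 was 18.0 to 36.1 in si_NC and 3.85 to 6.77 in OE_NC. FADS2 relative to FADS1 was 0.883 to 0.978 in si_NC and 0.600 to 0.726 in OE_NC. In each of these pairs the groups did not overlap, so SCD was lower relative to FASN and to SCD5, and FADS2 relative to FADS1.

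ACACA relative to FASN went the other way, at 0.313 ± 0.00887 in si_NC and 0.486 ± 0.0462 in OE_NC (SD, n = 3). ACSS2 relative to ACLY was 0.0630 to 0.127 in si_NC and 0.0395 to 0.0496 in OE_NC. Of 9 ratios computed, all but FADS1 relative to FASN separated OE_NC from si_NC without overlap, and 2 separated OE from OE_NC. Of single genes tested, 35.8 percent separated OE_NC from si_NC and 33.3 percent separated OE from OE_NC, in either direction by CPM. No such share was computed for ratios. FADS1 relative to FASN was 0.802 to 0.899 in OE and 0.661 to 0.748 in OE_NC. ELOVL6 relative to ELOVL5 was 0.350 to 0.377 in OE and 0.430 to 0.457 in OE_NC, and in si it was 0.412 to 0.507, overlapping the 0.498 to 0.573 of si_NC. ELOVL5 made up 20.0 to 27.3 percent of the summed RPKM of the 10 enzymes in the si and si_NC libraries and 31.5 to 34.9 percent in the OE and OE_NC libraries.

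**Figure D3:**
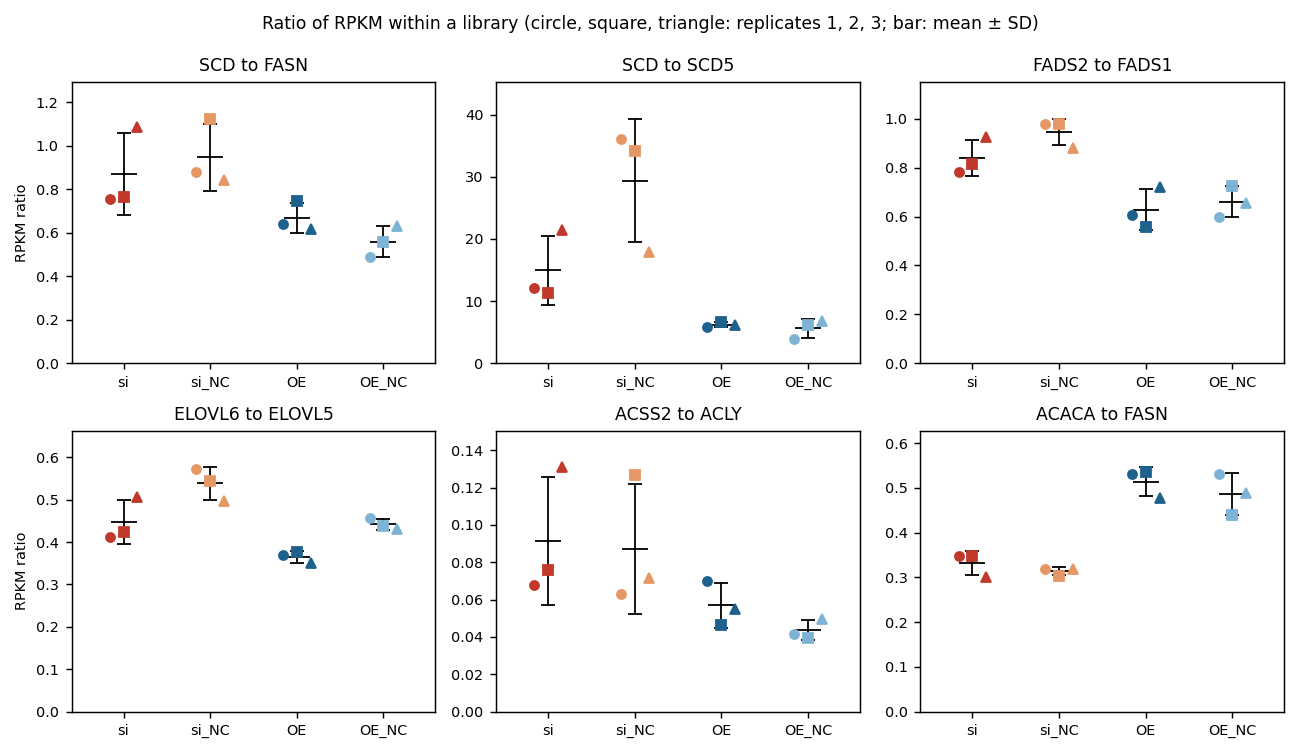
Ratio of the RPKM of 2 enzymes within each library (y axis, from 0) for 6 pairs, in the 3 libraries of each group, with the mean and SD as black bars. All pairs but ACACA to FASN are lower in OE_NC than in si_NC without overlap, and ACACA to FASN is higher without overlap. ELOVL6 to ELOVL5 is also lower in OE than in OE_NC.

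Replicates of a group varied together in these enzymes. In si replicate 3 all 10 enzymes were above both other si libraries, with a median log2 difference of 0.49 from them, while 39.9 percent of all genes tested were above both. ACSS2 differed most, by 1.25 log2. In si_NC replicate 2, 7 of the 10 were above both other si_NC libraries, while 38.3 percent of all genes tested were. The median difference of the 10 was 0.28 log2, and the largest was again in ACSS2, at 1.22. In 3 libraries 8 of the 10 were below both others of the group: si_NC replicate 3 (median -0.33 log2), OE_NC replicate 1 (-0.23) and OE replicate 1 (-0.09). The share of all genes below both others was not computed. The other OE libraries had medians of 0.01 and 0.05.

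The 20 cholesterol synthesis and uptake genes followed the same libraries. Their median log2 difference was 0.47 in si replicate 3, 0.30 in si_NC replicate 2, -0.21 in si_NC replicate 3 and -0.19 in OE_NC replicate 1. The median over all genes tested was within 0.012 log2 of 0 in each of the 12 libraries. The SD of SCD was 25.9 CPM in si and 19.4 in si_NC, against 2.22 in OE and 4.77 in OE_NC (n = 3 each).

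**Figure D4:**
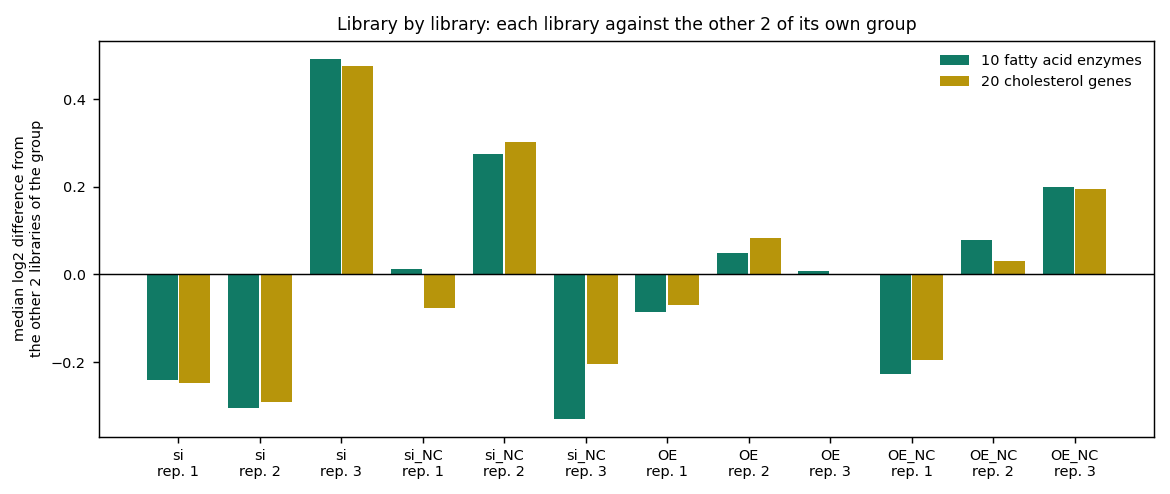
Median log2 difference of each library from the other 2 of its group (y axis) over the 10 fatty acid enzymes (green bars) and 20 cholesterol genes (yellow bars), for the 12 libraries (x axis). Both bars are highest in si replicate 3 (0.49 and 0.47) and si_NC replicate 2 (0.28 and 0.30).

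The genes most like FASN over the 12 libraries were FADS2, SCD, FAM120A, SREBF2 and HMGCS1, with Pearson r of log2 CPM from 0.985 to 0.987, among 9487 genes with a mean of at least 5 CPM. Of the other enzymes, ACLY ranked 6 (r = 0.984), FADS1 ranked 24 (r = 0.965), ACACA ranked 77 (r = 0.939), ELOVL6 ranked 237 (r = 0.886) and ELOVL5 ranked 511 (r = 0.826). ACSS2 and SCD5, below that level, had r of 0.939 and -0.43. These values describe a pattern over libraries that share their group and their scaling, and the separation of the OE and OE_NC libraries from the rest enters all of them.

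Genes around the pathway, from lists that share no gene with the 10 enzymes, were set beside them. In OE_NC against si_NC, 10.2 percent of all genes tested were called lower and 9.49 percent higher. In the cholesterol synthesis and uptake list 17 of 20 genes were called lower and 0 higher, with a median log2 fold change of -1.04. The smallest p-values of that list were those of SC5D (-1.07), IDI1 (-1.78) and SQLE (-1.78 log2), which act late, early and midway in the sterol pathway. Of 33 regulators tested, 8 were lower and 3 higher, with a median of 0.02. INSIG1, the retention protein of the SREBP pathway and itself an SREBP target, was lower by -2.09 ± 0.21 log2 (SE; edgeR adjusted p = 3.47e-05). LPIN1, a phosphatidate phosphatase, was lower by -1.999 ± 0.301 log2, and SREBF2, which encodes SREBP2, by -1.07 ± 0.16 log2 (SE). SREBF1, which encodes SREBP1 and is named here after its values were seen, was lower by -0.46 ± 0.15 log2 (SE; edgeR adjusted p = 0.0439), a call lost in 5 of 6 refits that left out 1 library.

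Among suppliers of carbon and NADPH, 4 of 15 were called lower and 1 higher in OE_NC, with a median of -0.05 log2. The counts of this and the following lists stand beside 10.2 percent lower and 9.49 percent higher of all genes tested. IDH1 and IDH2, the isocitrate dehydrogenases that yield NADPH, were lower by -0.76 and -0.57 log2, and the transketolase TKT by -0.32. Of 9 other elongation enzymes, 3 were lower, HSD17B12 (-0.33), HACD3 (-0.29) and HACD1 (-0.97 log2), and 1 was higher. HACD1 lost its call without si_NC replicate 1, si_NC replicate 2, OE_NC replicate 2 or OE_NC replicate 3, and HACD3 without OE_NC replicate 3. Of 9 other desaturases and their electron donors 1 was lower, CYB5A, the cytochrome b5 that passes electrons to desaturases (-0.36 log2), and 0 were higher. Of 7 acyl-CoA synthetases, ACSL3 (-0.47) and ACSL4 (-0.54 log2) were lower and 0 were higher. Of 11 glyceride synthesis genes, 3 were lower, with LPIN1 and LPIN2 (-0.50 log2) leading by p, and 1 was higher, AGPAT2 (0.46), whose call remained only without si_NC replicate 1 among the 6 refits that left out 1 library. Of 9 other carboxylation and chain-building genes, 1 was lower (AASDHPPT, -0.33 log2) and 2 were higher. Of the higher, MECR (0.31) lost its call in all 6 refits, and ACSF3 (0.69) without si_NC replicate 2, OE_NC replicate 2 or OE_NC replicate 3. The medians of these smaller lists lay between -0.26 and 0.14 log2.

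**Figure D5:**
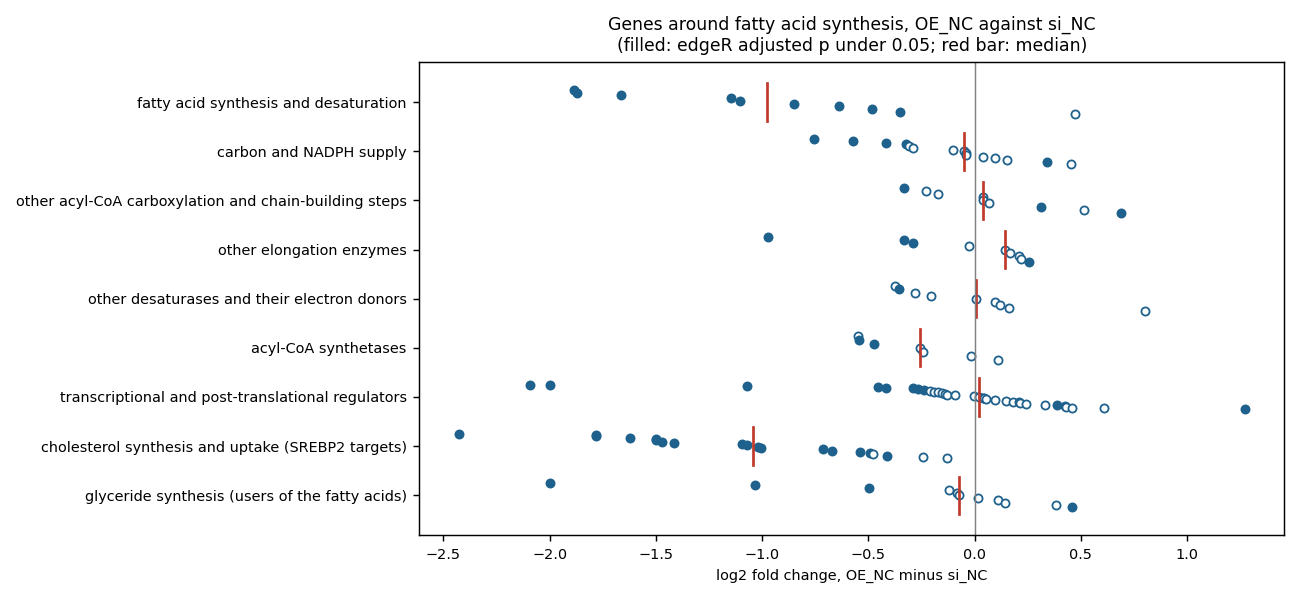
Log2 fold change between OE_NC and si_NC (x axis) of every tested gene in the 10 enzymes and 8 lists around them (rows), with filled points for edgeR adjusted p under 0.05 and a red bar at each list's median. The fatty acid enzymes and the cholesterol genes have medians of -0.98 and -1.04, and the other lists have medians between -0.26 and 0.14.

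In si against si_NC, 1 or 0 genes of each list passed. CS, the citrate synthase whose product feeds ACLY, was higher at 34.8 ± 1.59 against 24.7 ± 1.75 CPM (SD, n = 3), a log2 fold change of 0.49 (edgeR adjusted p = 0.00786), and it stayed called in all 6 refits that left out 1 library. Lower were AASDHPPT, which arms the carrier domain of FASN (-0.37 log2), CYB5A (-0.36), the nuclear receptor RXRA (-0.65) and SC5D (-0.41). Each of these 4 lost its call without si replicate 1, si replicate 2, si_NC replicate 1 or si_NC replicate 3, and SC5D also without si_NC replicate 2. The cholesterol list had a median of -0.30 log2 and the regulators one of 0.02. The unadjusted edgeR p was under 0.05 for 9 of 20 cholesterol genes and 11 of 33 regulators, and for 3083 of all 16300 genes tested.

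In OE against OE_NC, the transketolase TKT was lower at 115 ± 1.06 against 136 ± 4.16 CPM (SD, n = 3), a log2 fold change of -0.24 (edgeR adjusted p = 0.0431), and the sphingolipid desaturase DEGS1 was lower by -0.35 log2 (edgeR adjusted p = 0.0424). Both calls were lost without OE replicate 1, 2 or 3 or without OE_NC replicate 1 or 2, and were kept without OE_NC replicate 3. Of the 20 cholesterol genes 0 were called in OE by edgeR and 2 had an unadjusted p under 0.05, with a median of 0.04 log2. Of all 16300 genes tested, 3736 had an unadjusted edgeR p under 0.05.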

How the data were processed

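RNA from 12 libraries was sequenced from stranded, polyA-selected preparations, per the labels' protocols. One deposited table holds read counts for each gene, not normalised. Per the submitters' processing notes the tools include fastp 0.23.0, Subread 1.5.1 and its counter featureCounts; no aligner, build or counting strand is named there. The other deposited table holds RPKM, which matched the counts divided by exon length and by the library's total (largest relative difference 5.33e-15). Of nonzero counts 66.2 to 69.3 percent were even numbers, a pattern that counting each mate of a pair would give, so halved counts were tried. Groups came from titles and source names; 1 title reads s_NC2 and its source name places it in si_NC. The 2 entries without a gene name took 0.0868 to 0.116 percent of each library and were dropped.

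Counts were tested with edgeR 4.0.16 (R 4.3.3): TMM, filterByExpr (minimum count 10, minimum total 15; 16300 genes), quasi-likelihood F test in 1 fit of 12 libraries with a mean per group and 8 residual degrees of freedom, and Benjamini-Hochberg adjustment over all genes tested with a threshold of 0.05. SE is the log2 fold change over the root of F. CPM uses the TMM-scaled totals, and RPKM ratios use the deposited values. The procedure was tested on simulated data.

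The 10 enzymes and the lists around them were chosen with earlier results of these data known, and the lists are not independent evidence. All 10 enzymes are named in each comparison, and from each list up to 3 called genes by p. Where a list had no call, the rule's most abundant genes are not named. LPIN1 stands in 2 lists, and 1 listed gene is not reported here. Alternatives were DESeq2 1.42.0 size factors and Wald test, library totals, other filters, fewer groups, a replicate block, limma 3.58.1 on log2(RPKM + 1) and log2(RPKM + 0.1), halved counts, an exon length correction (spline, 4 degrees of freedom) and leaving out libraries.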

Additional observations from a re-analysis of the deposited data

Results flagged for a closer look

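Of the 10 enzymes, 0 had a change in OE that differed from the change in si past the edgeR threshold, with unadjusted p under 0.05 for 2 and 1 called by the DESeq2 Wald test. The 12 genes around the pathway given below passed this edgeR threshold. They were picked from the lists because they were called, so their number does not measure how often listed genes passed. Of all 16300 genes tested, 8.41 percent were called in this comparison. Each value below is the log2 change in OE less the log2 change in si. This measure holds OE_NC and si_NC with signs opposite to those in the comparison of controls, so it is not independent of that comparison.

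The change was the higher in OE for CYP51A1 (0.95) and SC5D (0.70), which act in cholesterol synthesis. The same held for FBXW7 (0.52), a ubiquitin ligase subunit that binds SREBPs, and MBTPS1 (0.47), the site-1 protease that cleaves them. ACSL3 (0.50), which activates long-chain fatty acids, AASDHPPT (0.44), HSD17B12 (0.45), IDH1 (0.46) and LPIN2 (0.40) were also higher by this measure.

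The change was the lower in OE for DEGS1 (-0.65), CS (-0.64) and PRKAG2 (-0.40), a regulatory subunit of AMP-activated kinase. CS was at 34.8 ± 1.59 CPM in si and 24.7 ± 1.75 in si_NC, and at 28.2 ± 1.01 in OE and 31.3 ± 1.01 in OE_NC (SD, n = 3).

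Leaving out each of the 12 libraries in turn, CS, DEGS1, FBXW7 and SC5D stayed past the threshold in all 12 refits. ACSL3 did not without si replicate 1, si replicate 2, OE replicate 1 or OE replicate 2. The same 4 libraries and 2 to 6 others each ended the call of AASDHPPT, CYP51A1, HSD17B12, IDH1, LPIN2, MBTPS1 and PRKAG2.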

How the results depend on the processing

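The lower level of 9 of the 10 enzymes in OE_NC than in si_NC was called in each alternative in which they were tested. The filter of 5 CPM in 3 libraries left out ACSS2 and SCD5, so that 8 of 8 were called there. SCD5 was also called, as higher, by limma on log2(RPKM + 1) (0.21) and log2(RPKM + 0.1) (0.49), which gives 10 calls each. ACSS2 was at -0.73 on log2(RPKM + 1), a scale that understates the change of low genes. Between si and si_NC, 0 enzymes were called in the reported fit, against 1 by the DESeq2 Wald test, 2 with no filter on low counts (ELOVL6 and FADS2), 1 by limma on log2(RPKM + 1) (SCD5, higher), 1 with the exon length trend removed (ELOVL6), and 2 without si replicate 3 and si_NC replicate 2. The last setting, which kept all OE and OE_NC libraries, also called 2 enzymes between OE and OE_NC. For the difference of the changes, 0 enzymes became 1 by the DESeq2 Wald test, 3 with no filter, 1 with the length trend removed and 5 without those 2 libraries. Leaving out 1 library at a time gave 0 to 2 enzymes for si, 0 for OE, 9 for the controls and 0 to 5 for the difference. The cause of these changes was not tested.

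Counts over all genes moved more. Between si and si_NC, 414 genes became 1222 (DESeq2 Wald test), 1208 (no filter), 8 (only the groups compared), 1093 (length trend removed) and 1119 (without the 2 libraries), and 56 to 1083 without 1 library. Between OE and OE_NC, 728 became 1561, 1679, 1621 (only the groups compared) and 2325 (without the 2 libraries), and 19 to 758 without 1 library. The controls had 3215 calls and 1882 to 2833 without 1 library. The difference had 1371, 2305 without the 2 libraries and 588 to 2152 without 1 library. Scaling by library totals shifted the split: higher calls were 298 of 404 against 150 of 414 for si, 159 of 812 against 362 of 728 for OE, 2298 of 3242 against 1547 of 3215 for the controls and 265 of 1534 against 700 of 1371 for the difference, whose median over all genes moved from -0.02 to -0.16 log2. Limma on log2(RPKM + 1), which uses the same totals, gave 245 of 329, 123 of 612, 2288 of 3189 and 264 of 1425, and removing the length trend gave 175 of 1093, 393 of 539, 1037 of 3794 and 1365 of 1812.

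Signs turned only for enzyme values that did not pass the test. ACACA in si was 0.0065 by library totals, 0.0054 by limma on log2(RPKM + 1) and 0.0066 on log2(RPKM + 0.1). ACSS2 in si was 0.058 without si replicate 1, 0.058 without si replicate 2 and 0.37 without si_NC replicate 2 (range without 1 library -0.70 to 0.37), and its difference of changes was -0.012 without si_NC replicate 2 (range -0.012 to 1.06). ACLY in OE was 0.013, 0.021 and 0.0013 on leaving out OE replicate 1, OE_NC replicate 2 or OE_NC replicate 3, in that order (range -0.085 to 0.021), and FASN in OE was -0.00077 with the length trend removed and -0.052 without OE_NC replicate 1 (range -0.052 to 0.12).

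Deviations of same-numbered libraries correlated at -0.257 to 0.092 for si, -0.015 to 0.045 for OE and -0.116 to 0.189 for the controls. Differently numbered libraries gave -0.185 to 0.332, -0.035 to 0.048 and -0.259 to 0.217 in the same order. With 3 libraries per group, centred on their group mean, these values cannot decide whether replicate numbers pair the samples. With the replicate block, 396, 803, 3150 and 1247 genes and 0, 0, 9 and 0 enzymes were called for si, OE, the controls and the difference. SCD5 and ACSS2 were the least abundant of the 10, with 28 to 84 and 37 to 233 reads per library. The part of depth in their spread was not tested.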
